A study of Rattus norvegicus with 30 samples.

Results

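Gene expression in the heart of old rats, at 78 weeks of age, was compared with that in the heart of mature adult rats, at 21 weeks. The comparison took all 10 arrays of 78 weeks and all 10 arrays of 21 weeks, which are 20 of the 30 arrays of the study, with gender as a term. All rats were untreated animals of the inbred F344 strain, with 5 females and 5 males at each age, and each array held Cy3-labeled cRNA of 1 rat. The hearts were frozen and ground to powder with no chamber or cell type named as separated, and fewer cells of a type and less RNA per cell cannot be told apart in any value below. The hearts of 10 younger rats, at 8 weeks, were of the same strain and equally untreated, and their levels are given beside the other ages where they help to place them.

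Before any result, 2 facts of the design have to be stated. According to the methods of the study, RNA samples of one age were handled in one batch and different ages in different batches, and none of the slides held arrays of both 21 and 78 weeks. A slide did hold arrays of both 8 and 78 weeks, and 6 of the 10 arrays of 78 weeks were scanned on the day of the 8-week arrays, so that closeness of these ages and a shared slide or day cannot be told apart. Age and batch cannot be told apart in any difference between 78 and 21 weeks. In addition, 2 arrays of 78 weeks were at odds with their label of sex. Ddx3y, a Y-linked RNA helicase, lay at -0.90 on the array labelled female replicate 2 and at -5.48 on the array labelled male replicate 3, while the other females of the 20 arrays lay between -5.85 and -5.05 and the other males between -1.28 and -0.57. Eif2s3y, a Y-linked translation factor, placed both arrays in the same way, at 1.36 and -5.60. The labels were kept as given, and results that change without both arrays are marked as such.

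The heart beats through cardiomyocytes, whose sarcomeres are built from myosin, actin and the giant protein titin, and whose calcium is released by the ryanodine receptor and pumped back by a calcium ATPase. These cells take most of their energy from the oxidation of fatty acids in mitochondria. Around them lie fibroblasts, which make the collagen matrix, together with vessels and resident immune cells. Cardiac tissue also carries a circadian clock, in which Bmal1 and Clock activate the Per and Cry genes, the Per and Cry proteins repress this activation, and Rev-erb receptors (Nr1d1 and Nr1d2) repress Bmal1. Stiffening of the matrix, loss of capillaries and inflammation are known features of the aged heart, and Nppa, Nppb and Gdf15 are known to respond to load or injury.

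The p-values below measure the spread between these rats. All levels below are log2 values of the processed Cy3 signal over the 75th percentile of the same array, and a difference is the level at 78 weeks minus that at 21 weeks. The number of spots well above background ranged from 17182 to 22851 on the arrays of 21 weeks and from 21371 to 22961 on those of 78 weeks, and 3 male arrays of 21 weeks had fewer than 20000. Of 17252 gene names tested with limma, 9034 had an adjusted p under 0.05, which is 52.4% of all, with 3838 higher (22.2%) and 5196 lower (30.1%) at 78 weeks. With only the 4 arrays of 78 weeks that were scanned on the day of every 21-week array, 3628 (21.0%) were called, 1747 higher (10.1%) and 1881 lower (10.9%). With quantile normalization of the 20 arrays, 8867 (51.4%) were called, and at least 1.5-fold 3245 (18.8%) were called with the first scaling, 2078 higher (12.0%) and 1167 lower (6.76%). A set of 3379 names (19.6%) passed in the same direction in all 3 settings, 1708 higher (9.90%) and 1671 lower (9.69%). Names of this last kind are called held below, and every gene described as risen or fallen below was held unless the text says otherwise.

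The difference depended on the brightness of a gene. Over all names the median difference was -0.07, but it was 0.12 in the dimmest of 4 equal groups of names by mean level and -0.26 in the brightest, where 2206 of 4314 names were called lower and 576 higher. After quantile normalization, which gives the arrays one common distribution, the medians of these groups were -0.04 and -0.05. Scaling each array by the 75th percentile of the probes detected on all 20 arrays moved the median over all names to 0.06 and the share of higher names among those called from 42.5% to 58.8%. Lists of bright genes, such as those of the sarcomere and of mitochondria, were therefore read under both scalings. Single genes with no quantile value beside them are given with the first scaling alone.

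**Figure D1:**
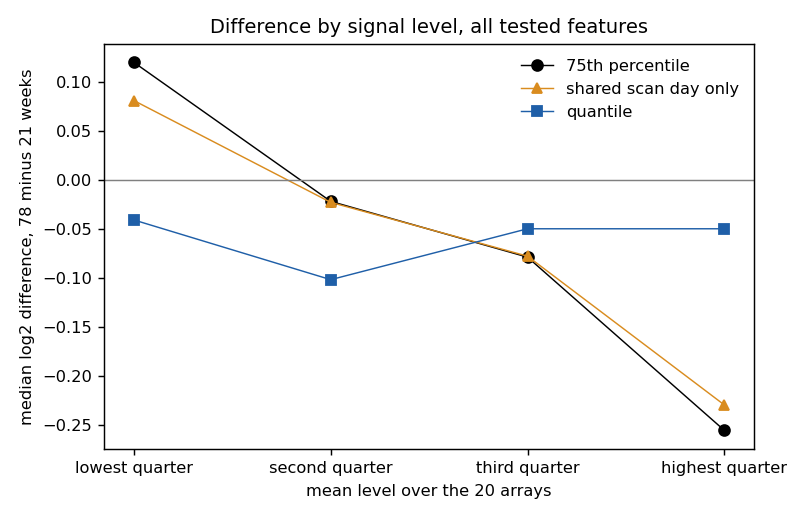
Median log2 difference, 78 minus 21 weeks (vertical axis), over all tested gene names in 4 equal groups by mean level (horizontal axis), with the 75th percentile scaling (circles), with the shared scan day only (triangles) and with quantile normalization (squares). The median runs from 0.12 to -0.26 with the first scaling and lies between -0.10 and -0.04 with quantile normalization.

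The clock genes were ordered by their place in the feedback loop, and stretches of 250 bases before the start of 3 of them are shown with the motif through which clock factors are known to act. The sequences are those of RefSeq, build GRCr8, written 5′ to 3′ on the strand of the gene. The stretch of Per2 lies at chr9:99496994-99497243, minus strand, and the capitals mark a D-box (TTATGTAA), the motif of the Dbp and Tef factors. That of Tef lies at chr7:115206577-115206826, plus strand, and the capitals mark an E-box (CACGTG), the motif of Bmal1 and Clock. That of Bmal1 lies at chr1:176766078-176766327, plus strand, and the capitals mark the sequence AGGTCA, the core of the motif of the Rev-erb and Ror receptors.
Per2: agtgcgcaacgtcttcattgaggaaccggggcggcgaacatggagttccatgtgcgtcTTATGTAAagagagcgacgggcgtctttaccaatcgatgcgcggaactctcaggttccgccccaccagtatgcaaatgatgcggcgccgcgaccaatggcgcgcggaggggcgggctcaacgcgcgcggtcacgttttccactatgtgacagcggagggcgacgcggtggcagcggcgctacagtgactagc
Tef: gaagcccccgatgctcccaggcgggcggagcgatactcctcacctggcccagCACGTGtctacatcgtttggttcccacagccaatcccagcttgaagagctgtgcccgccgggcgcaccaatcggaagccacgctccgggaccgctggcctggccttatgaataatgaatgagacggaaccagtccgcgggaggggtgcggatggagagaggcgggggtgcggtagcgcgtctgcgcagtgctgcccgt
Bmal1: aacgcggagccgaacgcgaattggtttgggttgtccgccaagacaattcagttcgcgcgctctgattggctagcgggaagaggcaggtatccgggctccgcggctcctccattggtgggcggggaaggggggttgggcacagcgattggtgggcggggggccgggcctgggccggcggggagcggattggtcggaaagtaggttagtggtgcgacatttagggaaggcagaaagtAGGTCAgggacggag
Searched on both strands, the E-box was in 5.59% of all 33469 promoter stretches of this length, the D-box in 0.828% and the AGGTCA motif in 14.1%. Of 17 clock genes with a promoter in the table, 4 held the E-box, 1 the D-box and 2 the AGGTCA motif. These matches describe the letters only and do not show that a factor was bound.

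Single clock genes differed in both directions between the ages. Of 12 clock genes tested, 4 were called higher and 3 lower, and the median difference over the list was 0.23. Among all names, 22.2% were called higher and 30.1% lower, so that the counts do not set this small list apart. Held were 2 higher and 1 lower. Per2, a repressor of the loop, lay between -1.31 and 0.05 at 21 weeks with a median of -0.65, and between -0.44 and 1.62 at 78 weeks with a median of 0.60. Most of the old hearts were above all adult hearts, although the groups overlapped. Per2 rose by 1.19 ± 0.25 (SE, n = 10 per age), or 2.28-fold, with an adjusted p of 0.000645. Cry1, its partner in repression, went the other way, from a median of 1.05 (0.70 to 1.64) at 21 weeks to 0.56 (0.07 to 1.01) at 78 weeks, with a difference of -0.54 and an adjusted p of 0.00153. The ranges of Cry1 met only between 0.70 and 1.01. Tef, an output factor of the clock that reads the D-box, rose by 0.75 (adjusted p = 0.00725), from a median of -0.74 (-1.83 to -0.27) to one of 0.02 (-0.94 to 0.56).

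Bmal1, the activator of the loop, spread widely within both ages. Its levels lay between -0.81 and 1.99 at 21 weeks, with a median of 1.00, and between -2.15 and 1.38 at 78 weeks, with a median of -0.04. The difference of -1.15 ± 0.42 had an adjusted p of 0.0278, but with the shared scan day alone it was -1.47 with an adjusted p of 0.062. The call was also lost on leaving out any of 4 single arrays, female replicates 4 and 5 of 21 weeks, female replicate 1 and male replicate 3 of 78 weeks, with adjusted p values of 0.0507 to 0.0522. Within the sexes the difference of Bmal1 was -2.04 in females and -0.25 in males, but these were not called different (limma, adjusted p = 0.327). Both sexes at 78 weeks include an array at odds with its label. The other called clock genes were Cry2 at 0.65, Nr1d2 at 0.84 and Nfil3, a repressor at the D-box, at -0.53, and none of the 3 was held. Dbp at 0.30 (adjusted p = 0.588), Nr1d1 at -0.12 (0.71) and Per1 at 0.22 (0.567) were not called.

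At 8 weeks Per2 had a median of -0.56 and Bmal1 one of 1.63. The differences of 78 from 8 weeks were 1.17 in Per2 (adjusted p = 0.00252), 1.13 in Tef (0.000415), -0.89 in Cry1 (7.53e-06) and -1.79 in Bmal1 (0.000694). Against 21 weeks, the levels of all these genes overlapped with those at 78 weeks, and Bmal1 was not held. Both comparisons used the same 78-week arrays. Light and dark each lasted 12 hours in the animal rooms per the study's methods, and the hour at which the hearts were taken is not given in the sources used here, so that a difference of age and a difference of hour cannot be told apart. Of the glucocorticoid-responsive genes, which also follow the day, 5 of 16 were called higher and 1 lower, with a list median of -0.07. Among them Zbtb16 rose by 1.33 (adjusted p = 0.000239), from a median of -2.93 (-4.76 to -2.19) to -1.98 (-2.48 to -0.88), Klf9 by 0.53 and Fkbp5 by 0.40.

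**Figure D2:**
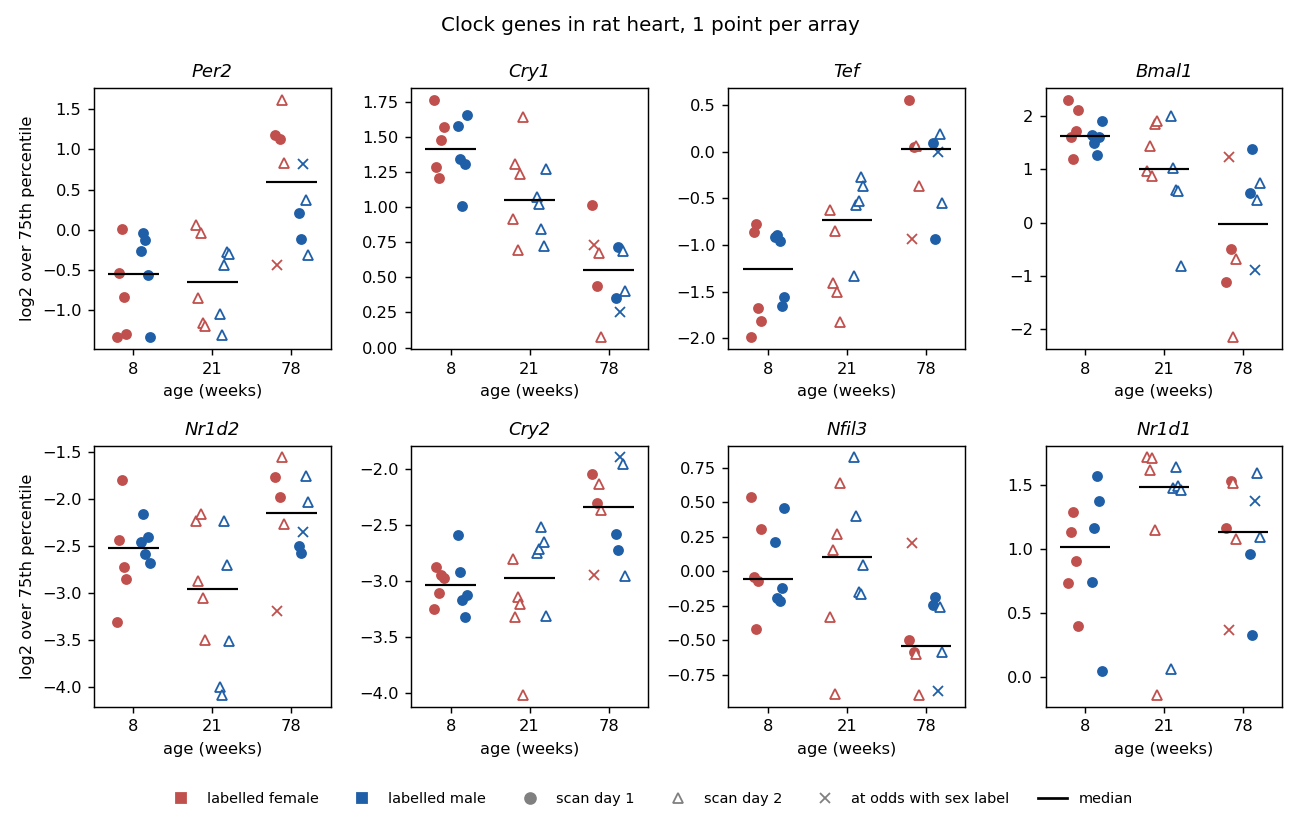
Log2 level over the 75th percentile of the array (vertical axes) of 8 clock genes at 8, 21 and 78 weeks (horizontal axes), with 1 point per array, coloured by the label of sex and shaped by scan day, crosses for the 2 arrays at odds with their label, and a line at the median of each age. The medians of Per2 were -0.56, -0.65 and 0.60 and those of Bmal1 were 1.63, 1.00 and -0.04 in order of age.

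With the first scaling, genes of stress and load were mixed between 78 and 21 weeks, and the natriuretic peptides were not called. Gdf15, a secreted stress factor of the TGF-β family, lay between -3.74 and -2.81 at 21 weeks with a median of -3.21, and between -2.85 and 0.29 at 78 weeks with a median of -1.69. The lowest old heart reached only the top of the adult range. Gdf15 rose by 1.79 ± 0.34, with an adjusted p of 0.000295, and it also exceeded the 8-week level, by 2.13 (adjusted p = 0.00191). Its probe was well above background on 5 of 10 arrays at 21 weeks, 6 at 8 weeks and 10 at 78 weeks, so that no exact fold is given. Xirp2, an actin-binding protein of the intercalated disc, lay between 1.36 and 3.02 at 21 weeks and between 3.27 and 3.88 at 78 weeks without overlap, a rise of 1.27 (adjusted p = 2.56e-05). Among all names, 4.07% had every 78-week array above every 21-week array and 3.33% had every one below. Npr3, the clearance receptor of natriuretic peptides, rose by 0.72 (adjusted p = 0.000335), also without overlap, and Ccn2, a matrix-associated growth factor, by 0.78 (0.000131).

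Nppa had a median of 8.31 (7.84 to 8.74) at 21 weeks and 8.51 (7.90 to 9.08) at 78 weeks. The difference was 0.18, with an adjusted p of 0.272. It was called only with quantile normalization, at 0.55 with an adjusted p of 0.0211. Against 8 weeks, Nppa was higher at 78 weeks by 0.46 (adjusted p = 0.0102). Nppb had medians of 7.50 and 7.52, a difference of -0.04 and an adjusted p of 0.834. Fhl2, a LIM protein of the sarcomere, was called lower at -0.97 but had an adjusted p of 0.106 with the shared scan day alone. Of the 13 hypertrophy and load genes tested, 4 were called higher and 2 lower, with a median of 0.15, and the 4 higher ones (Gdf15, Xirp2, Ccn2 and Npr3) were all held. With quantile normalization, 9 were called higher and 1 lower, with a median of 0.39. Between 78 and 8 weeks, 9 were called higher and 1 lower at 78 weeks, with a median of 0.36.

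Several matrix glycoproteins were higher at 78 than at 21 weeks, whereas the main fibrillar collagens were not called. Of 32 matrix glycoproteins and proteoglycans, 16 were called higher and 4 lower, with a median of 0.34 against -0.07 over all names, and 7 higher and 1 lower were held. Without the 3 weak male arrays of 21 weeks, 11 were called higher and 2 lower, with a median of 0.16, and against 8 weeks 3 were higher and 11 lower, with a median of -0.14. Thbs4, an adhesive glycoprotein of strained muscle and tendon, had a median of 2.25 at 21 weeks (1.94 to 2.42) and 3.53 at 78 weeks (1.89 to 4.80), a rise of 1.36 (2.57-fold, adjusted p = 0.000166). The old hearts spread over a far wider range than the adult ones. Cilp, a matrix protein of fibroblasts, rose by 1.28 (adjusted p = 3.71e-06), from a range of 0.85 to 1.36 to one of 1.28 to 3.10. Vcan, a large proteoglycan, rose by 1.2 (6.70e-06) without overlap. Fn1, fibronectin, was called higher at 1.01 but had an adjusted p of 0.0526 with the shared scan day alone.

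Of the collagens, 5 of 17 were called higher and 1 lower, with a median of 0.21, or 0.07 without the 3 weak arrays. Col8a1, a short-chain collagen of vessel walls, showed the largest difference, from a median of 0.09 (-0.57 to 1.2) to 2.06 (0.51 to 2.62), or 1.89 (3.71-fold, adjusted p = 1.14e-06). Col18a1, the basement membrane collagen that yields endostatin, rose by 0.71 (adjusted p = 0.000109). Col1a1, at 0.21 with an adjusted p of 0.24, and Col3a1, at 0.15 with 0.26, were not called, though quantile normalization placed them at 0.46 (0.0478) and 0.48 (0.0087). The fibrillar collagens were higher at 8 weeks, where Col3a1 lay between 7.44 and 8.01 against 5.83 to 6.45 at 21 weeks and 5.85 to 6.65 at 78 weeks, where 1 array was left out for a spot marked as an outlier. Between 78 and 8 weeks, 14 of the 17 collagens were called lower at 78 weeks and 1 higher, with a median of -0.70, where 14.7% of all names were called lower.

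Of 22 profibrotic signals, 8 were called higher and 3 lower, with a median of 0.22, and 5 of the higher ones were held. Of 24 genes of matrix turnover and crosslinking, 3 were called higher and 4 lower, with a median of 0.02. Ltbp2, a latent TGF-β binding protein family member of elastic fibres, lay between -2.55 and -1.71 at 21 weeks and between -1.33 and 0.36 at 78 weeks, without overlap. Its rise of 1.61 ± 0.17 was 3.04-fold, with an adjusted p of 6.86e-07. Inhba, the activin A subunit, rose by 1.06 (adjusted p = 9.33e-06), and Ltbp1, a latent TGF-β binding protein, by 0.83 (1.19e-05). Ltbp2 was also 0.68 above its 8-week level (adjusted p = 0.00445), whereas Ltbp1 lay at its 8-week level, with a difference of -0.04. Tgfb2 was called higher at 0.90 but had an adjusted p of 0.202 with the shared scan day alone.

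Within the contractile apparatus, titin was higher and many other proteins were lower at 78 weeks. Ttn, titin, lay between 3.60 and 5.81 at 21 weeks with a median of 5.04, and between 6.30 and 6.64 at 78 weeks with a median of 6.45, a rise of 1.65 (3.14-fold, adjusted p = 2.14e-06). At 8 weeks its median was 6.51, near that at 78 weeks. None of the 8 other titin probes was called in the opposite direction. Nebl, nebulette of the Z-disc, rose by 0.81, while Myoz2, a calcineurin-binding protein of the Z-disc, fell by 0.80 (adjusted p = 1.23e-05). With quantile normalization the difference of Myoz2 was -0.49. Of 22 genes of this list 5 were called higher and 10 lower, with a median of -0.28, but quantile normalization turned the median to 0.03 and left 2 called lower. The probe of the α-myosin heavy chain Myh6 was saturated on 20 of 20 arrays and that of the β-chain Myh7 on 19, so that no difference is given for them. The brightness of these genes fitted the labelled tissue, as did means of 9.29 and 8.91 for cardiac troponin T (Tnnt2) at 21 and 78 weeks.

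Single genes of calcium release were also higher at 78 than at 21 weeks. Of 18 calcium cycling genes tested, 5 were called higher and 4 lower, where 22.2% and 30.1% of all names were. The median of this list was -0.10, or 0.165 with quantile normalization. Held were 5 higher and 2 lower, where 9.90% and 9.69% of all names were held. Ryr2, the cardiac ryanodine receptor, lay between 4.23 and 5.95 at 21 weeks and between 6.24 and 6.92 at 78 weeks, a rise of 1.19 (2.29-fold, adjusted p = 1.11e-05) without overlap. Its 8-week range of 5.87 to 6.64 was close to that at 78 weeks, with a difference of 0.19 (adjusted p = 0.156). Itpr1 and Itpr2, receptors of inositol trisphosphate, rose by 0.96 and 1.07, and stood 0.31 (adjusted p = 0.021) and 0.09 (0.64) above their 8-week levels. Between 78 and 21 weeks, the other probe of Itpr1 had a difference of 1.3 and that of Itpr2 one of 0.52. Pln, phospholamban, which restrains the calcium pump, had a median of 8.03 (7.78 to 8.63) at 21 weeks and 7.23 (6.92 to 7.85) at 78 weeks, a fall of 0.86 (adjusted p = 2.60e-05), and it was also 0.40 below its 8-week level (0.00221). The groups met only at the edge of their ranges. With quantile normalization the difference of Pln was -0.51. S100a1, a calcium sensor of cardiomyocytes, fell by 0.77. The pump gene Atp2a2 was not called, at -0.12 with an adjusted p of 0.163, and quantile normalization turned its sign, to 0.25 with 0.0334. Its 2 other probes had differences of 0.25 and 0.46, and 1 of them was called, higher, so that the direction of Atp2a2 is uncertain.

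Among ion channels of the action potential, 8 of 26 were called higher and 3 lower, with a median of 0.05. Hcn4, the pacemaker channel of nodal cells, had a median of -3.55 (-4.07 to -2.83) at 21 weeks and -2.30 (-2.93 to -0.76) at 78 weeks, and it rose by 1.35 (adjusted p = 0.000115), with 0.94 over the 8-week level (0.0096). Its probe was well above background on 4 of 10 arrays at 21 weeks and 10 of 10 at 78 weeks. Kcnj3, the atrial potassium channel opened by acetylcholine, rose by 1.26 without overlap but matched its 8-week level, with a difference of 0.07. Its 2 other probes had differences of 0.58 and 0.67 between 78 and 21 weeks. Of 8 atrial markers, 1 was called higher and 3 lower, and their mean log2 level ranged from 4.14 to 4.50 at 21 weeks and from 3.96 to 4.66 at 78 weeks. The part of the amount of atrial tissue in these differences was not tested. Scn3b, a sodium channel β subunit, rose by 0.88.

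Most genes of the respiratory chain were lower at 78 weeks with all arrays, by an amount that shrank with quantile normalization. Of 32 complex I genes 26 were called lower and 0 higher, with a median of -0.49, against 14 lower, 1 higher and a median of -0.12 after quantile normalization. With the shared scan day alone, the median was -0.42 and 8 genes were called lower. Ndufs3, an iron-sulfur subunit of complex I, lay between 7.21 and 8.27 at 21 weeks and between 6.50 and 7.12 at 78 weeks, a fall of 0.78 (adjusted p = 8.15e-05) without overlap, or of 0.44 with quantile normalization. Its 8-week range was 6.75 to 6.94. The median differences of complexes II and III, IV and V were -0.41, -0.46 and -0.40, and became -0.07, -0.14 and -0.13. With the shared scan day alone, 0 of 12, 5 of 16 and 3 of 16 of their genes were called lower, and 0, 4 and 3 were held. Between 78 and 8 weeks the medians of complexes I, II and III, IV and V were -0.04, -0.03, -0.04 and 0.06.

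Fuel pathways were lower mainly before quantile normalization. Of 28 genes of fatty acid oxidation, 17 were called lower and 0 higher, with a median of -0.30 that became -0.08 with quantile normalization, and of 24 genes of glycolysis and glucose uptake 14 were called lower and 1 higher, with -0.31 becoming -0.03. The tricarboxylic acid cycle gave 13 lower and 1 higher of 23, and the pyruvate dehydrogenase complex 4 lower and 2 higher of 10, with medians of -0.22 and -0.15 that became -0.004 and -0.009, with 4 lower and 3 higher, and 4 lower and 4 higher. The share of the pyruvate dehydrogenase list was near the 30.1% lower and 22.2% higher of all names. Of 25 metabolic regulators, 10 were called lower and 4 higher. Mdh2, mitochondrial malate dehydrogenase, lay between 5.56 and 6.09 at 21 weeks and between 4.80 and 5.27 at 78 weeks, a fall of 0.86 (adjusted p = 1.68e-06), with 1 array of 21 weeks and 2 arrays of 78 weeks left out because their spots were marked as outliers. Eci1, an enoyl-CoA isomerase of β-oxidation, fell by 0.83, Fabp3, the heart fatty acid binding protein, by 0.67, and Pdk1, a kinase that inhibits pyruvate dehydrogenase, by 0.70. With quantile normalization Mdh2 fell by 0.54, Eci1 by 0.52, Fabp3 by 0.31 and Pdk1 by 0.63. Neither Mdh2 nor Eci1 was called between 78 and 8 weeks, with differences of -0.25 (adjusted p = 0.0541) and -0.02 (0.904).

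Genes of lipid synthesis spread widely within each age, together with markers of fat. Fasn, fatty acid synthase, lay between -0.80 and 5.32 at 21 weeks with a median of 2.34, and between 1.17 and 6.68 at 78 weeks with a median of 4.39. It was called higher at 1.92 (adjusted p = 0.0391), but the call was lost in 11 of 20 runs that left out 1 array each, with adjusted p values of 0.052 to 0.0796, and with the shared scan day alone (0.355). Of 14 adipocyte markers, 0 were called higher and 1 lower, their median difference was 0.47, and their mean log2 level ranged from -0.13 to 3.08 at 21 weeks and from -0.29 to 3.50 at 78 weeks. Adipoq, adiponectin, had a mean of 1.66 ± 1.81 (SD) at 21 weeks and 2.53 ± 1.59 at 78 weeks, and Ucp1, the uncoupling protein of brown fat, 2.56 ± 3.19 and 4.52 ± 2.16. Their part in the difference of Fasn was not tested. Pfkfb1, at 1.80, Acaca, at 1.17, Angptl4, at 1.04, and Pdk4, at 0.88, were called higher with the full set of arrays but not with the shared scan day alone. Of 25 genes of fatty acid uptake and storage, 4 were called higher and 8 lower. Pfkfb1 and Angptl4 also exceeded their 8-week levels, by 2.28 and 2.26.

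Genes of protein synthesis and breakdown were mostly lower. Of 61 mitochondrial ribosome genes, 58 were called lower and 0 higher, with a median of -0.45, and with quantile normalization 44 were still called lower, with a median of -0.30. Mrpl45, a protein of its large subunit, lay between 4.23 and 5.26 at 21 weeks and between 3.60 and 3.90 at 78 weeks, a fall of 0.93 (adjusted p = 7.55e-07) without overlap, and it was 0.25 below its 8-week level (0.000314). Of 74 cytosolic ribosome genes, 56 were called lower and 0 higher, with a median of -0.43, but quantile normalization gave 29 lower and 9 higher, with a median of -0.10. Of 40 proteasome genes, 34 were called lower and 0 higher, with a median of -0.44 (-0.23 with quantile normalization). Psmb6, a catalytic subunit of the proteasome, fell by 0.84 (adjusted p = 2.21e-06), with a difference of -0.61 with quantile normalization. Without the 3 weak male arrays of 21 weeks, the medians of these 3 lists were -0.31, -0.25 and -0.34. The lists stood near their 8-week levels, with medians of -0.06, 0.03 and -0.04 for 78 minus 8 weeks.

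**Figure D3:**
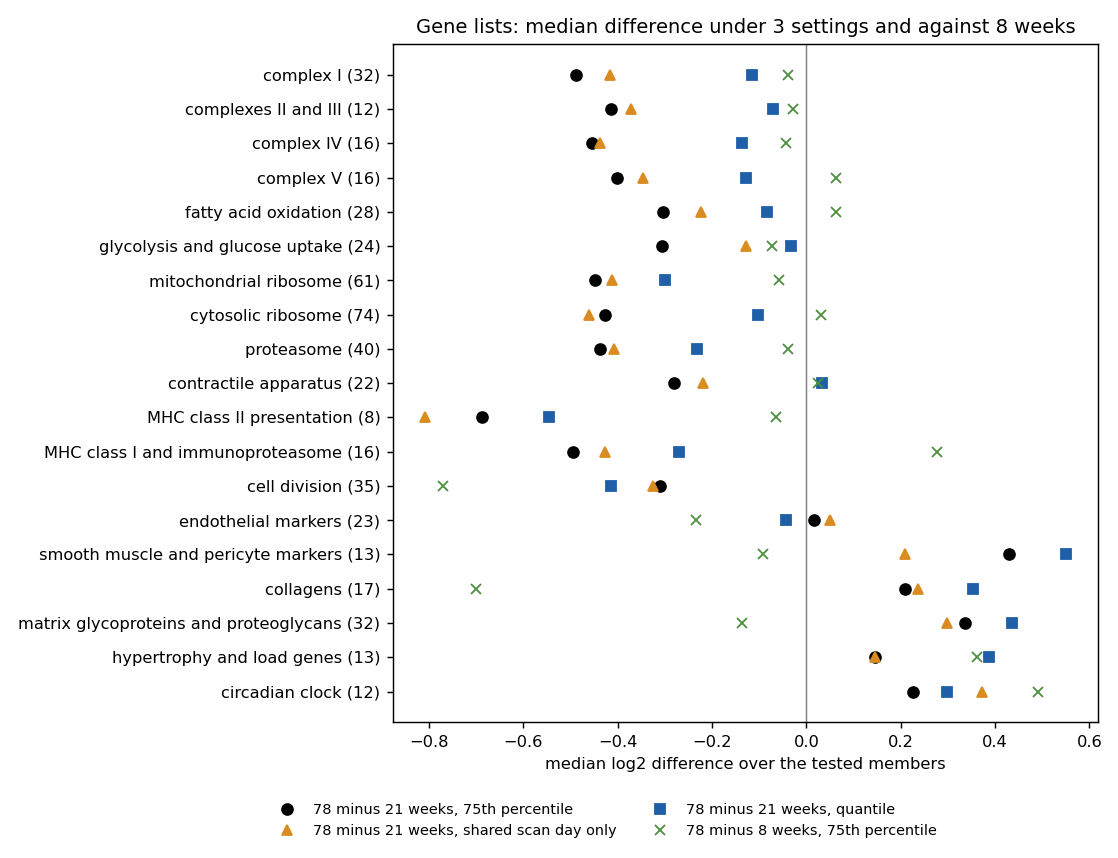
Median log2 difference over the tested members (horizontal axis) of 19 gene lists (vertical axis, number tested in brackets), for 78 minus 21 weeks with the 75th percentile scaling (circles), the shared scan day only (triangles) and quantile normalization (squares), and for 78 minus 8 weeks (crosses). Complex I lies at -0.49, -0.42 and -0.12 and at -0.04 against 8 weeks, whereas the collagens lie at 0.21, 0.24 and 0.35 and at -0.70 against 8 weeks.

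Antioxidant genes followed the mitochondrial ones, with exceptions. Of 36 tested, 20 were called lower and 3 higher, with a median of -0.33 (-0.13 with quantile normalization). Prdx3, the mitochondrial peroxiredoxin, lay between 5.12 and 6.17 at 21 weeks and between 4.42 and 5.10 at 78 weeks, a fall of 0.83 (adjusted p = 2.17e-05). With quantile normalization its difference was -0.59. The 3 higher genes were Txnip, an inhibitor of thioredoxin that responds to glucose, and the glutathione transferases Gsta1 and Gsta3. Txnip rose by 0.82 (adjusted p = 0.000358), from a median of 1.93 to 2.88, and lay 0.92 above its 8-week level (0.000753). Gsta1 rose by 0.74 (0.000723) and lay in order of age, with medians of 4.10, 5.34 and 5.83 at 8, 21 and 78 weeks. Hspb1, a small heat shock protein, fell by 0.62, and Manf, a secreted protein of the unfolded protein response, by 0.56. With quantile normalization their differences were -0.33 and -0.36. Of 30 heat shock proteins, 2 were called higher and 13 lower, with a median of -0.22 that became 0.02 with quantile normalization, and of 21 genes of the unfolded protein response 2 were called higher and 6 lower, with -0.06 becoming 0.16. Immediate early genes, which respond within minutes to stimulation, gave 8 higher and 6 lower of 27, and of these Dusp5, a phosphatase of ERK, fell by 0.65 (0.000945), while Fos, at 0.91, was not called with the shared scan day alone (0.414).

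Genes of antigen presentation were lower at 78 weeks in all 3 settings. Of 8 genes of MHC class II presentation, which displays peptides to helper T cells, 6 were called lower and 0 higher, all 6 were held, and the median was -0.69, against -0.81 with the shared scan day alone and -0.55 with quantile normalization. RT1-Db1, a class II β chain, lay between 3.46 and 4.58 at 21 weeks with a median of 3.81, and between 1.5 and 3.90 at 78 weeks with a median of 2.86, a fall of 1.02 (2.03-fold, adjusted p = 0.000123). RT1-Ba, a class II α chain, fell by 1.01 (0.00121), from a median of 0.21 (-0.45 to 0.81) to -0.81 (-2.87 to 0.38). In both genes the groups overlapped. Cd74, the invariant chain that escorts class II molecules, fell by 0.64 (0.000122), RT1-Bb by 0.76, RT1-Da by 0.74 and RT1-DMa by 0.61. With quantile normalization, the fall of Cd74, a bright gene, was 0.32.

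A single array, female replicate 4 of 78 weeks, was far below the rest in RT1-Ba, RT1-Bb and RT1-Da. Without it, RT1-Ba fell by 0.82 (adjusted p = 0.000205), RT1-Bb by 0.59 (0.000299) and RT1-Da by 0.55 (0.000318), and 6 of 8 class II genes were still called lower. Of 16 genes of MHC class I and the immunoproteasome, 11 were called lower and 1 higher, with a median of -0.49. Psmb9 and Psmb10, inducible subunits of the immunoproteasome, fell by 0.77 and 0.71. At 8 weeks the class II genes were close to 78 weeks, with a median difference of -0.06 for 78 minus 8 weeks, with 2 called higher and 0 lower.

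Among lymphocyte markers, 6 of 16 were called lower and 0 higher, where 30.1% of all names were lower, with a median of -0.49, or -0.25 without female replicate 4 of 78 weeks, and 3 were held. The list's mean log2 level ranged from -0.45 to 0.66 at 21 weeks and from -2.21 to 0.11 at 78 weeks. Cd7, an antigen of T cells and natural killer cells, was among the largest differences of all genes and is described with those below. Klrb1a, a receptor of natural killer cells, fell by 0.88 (adjusted p = 0.000719), whereas the T cell receptor component Cd3d was not called, at -0.34 (0.212). Their part in the fall of the class II genes was not tested. Of 35 interferon-stimulated genes 13 were called lower and 2 higher, with a median of -0.24, and among these the GTPases Ifi47 and Irgm fell by 0.80 and 0.63 and the chemokine Cxcl11 by 0.65.

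Few macrophage markers were called. Of 25 tested, 3 were called higher and 5 lower, with a median of -0.08, shares below the 22.2% higher and 30.1% lower of all names. The list's mean log2 level ranged from 0.97 to 1.77 at 21 weeks and from 0.46 to 1.67 at 78 weeks. Mrc1, the mannose receptor of resident macrophages, lay between 1.14 and 2.14 at 21 weeks and between 2.27 and 2.73 at 78 weeks, a rise of 0.84 (1.78-fold, adjusted p = 5.79e-06) without overlap. It also exceeded its 8-week level, by 0.58 (3.58e-06). C4a, a complement component, rose by 0.95 (0.000422) and lay 0.93 above 8 weeks. Cd163, a scavenger receptor of macrophages, was called higher at 0.85 but had an adjusted p of 0.0721 with the shared scan day alone. The general leukocyte marker Ptprc, at 0.03, and Cd68, at 0.10, were not called. Complement genes as a list gave 4 higher and 4 lower of 19, and chemokines and cytokines 1 higher and 4 lower of 21, where Ltb, lymphotoxin β, fell by 0.56 (0.00908).

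Several cell division genes were lower at 78 weeks than at both younger ages. Of 35 tested, 15 were called lower and 2 higher, with a median of -0.31 (-0.42 with quantile normalization), and between 78 and 8 weeks 23 were called lower and 1 higher, with a median of -0.77. Without the 3 weak male arrays of 21 weeks, 7 were called lower and 2 higher, with a median of -0.25, a share below the 23.3% of all names called lower in that setting. Ccnb1, cyclin B1 of entry into mitosis, lay between -2.44 and -1.45 at 21 weeks and between -3.19 and -2.11 at 78 weeks, a fall of 0.70 (adjusted p = 0.000102). Cdk1, its kinase, fell by 0.49 (0.00448), with medians of 0.99, 0.16 and -0.24 at 8, 21 and 78 weeks. Pcna, the sliding clamp of DNA replication, fell by 0.35. Ccnd2, cyclin D2 of the G1 phase, rose instead, by 0.80 (9.57e-05). Among 21 genes of senescence and cell cycle inhibition, 4 were called higher and 4 lower, with a median of 0.02. Cdkn2a, the p16 and Arf locus, was not called, at 0.23 with an adjusted p of 0.274, and Cdkn1a, p21, was not called, at -0.37 with 0.0579, and Plaur, the urokinase receptor, rose by 0.53 (0.00145).

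Single endothelial markers moved in opposite directions. Of 23 endothelial markers, 5 were called higher and 8 lower, with a median of 0.02. These shares were near the 22.2% higher and 30.1% lower of all names. Held were 4 higher and 6 lower, where 9.90% and 9.69% of all names were held. Emcn, endomucin of capillaries and veins, lay between 1.44 and 2.17 at 21 weeks and between 0.76 and 1.16 at 78 weeks, a fall of 0.81 ± 0.09 (adjusted p = 6.21e-07) without overlap. Its 8-week range of 1.32 to 1.58 also lay above all old hearts, with a difference of -0.49 (1.45e-06). Aqp1, the water channel of capillary endothelium, gave the same order, with a fall of 0.81 (9.17e-06) from 21 weeks and of 0.43 (0.00117) from 8 weeks. Cldn5, a tight junction protein, fell by 0.57, and Apln, a peptide of sprouting vessels, by 0.50.

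Other endothelial genes were higher. Vwf, von Willebrand factor, lay between 2.18 and 3.42 at 21 weeks and between 3.57 and 4.01 at 78 weeks, a rise of 0.72 (adjusted p = 0.00017), and Pecam1, an adhesion molecule of all endothelium, rose by 0.62 (2.56e-05) without overlap. Against 8 weeks, Vwf differed by 0.16 (0.0197) and Pecam1 by 0.08 (0.498). Of 13 markers of smooth muscle and pericytes, 7 were called higher and 3 lower, with a median of 0.43 (0.21 with the shared scan day alone). Myh11, the smooth muscle myosin, lay between 1.51 and 3.00 at 21 weeks and between 3.13 and 4.36 at 78 weeks, a rise of 1.31 (2.47-fold, 1.51e-05). Its other probe had a difference of 0.55. Abcc9, a subunit of the potassium channel of pericytes, and Cspg4, the NG2 proteoglycan, rose by 0.80 and 0.79, whereas Rgs5 and Notch3, also of mural cells, fell by 0.51 and 0.53.

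**Figure D4:**
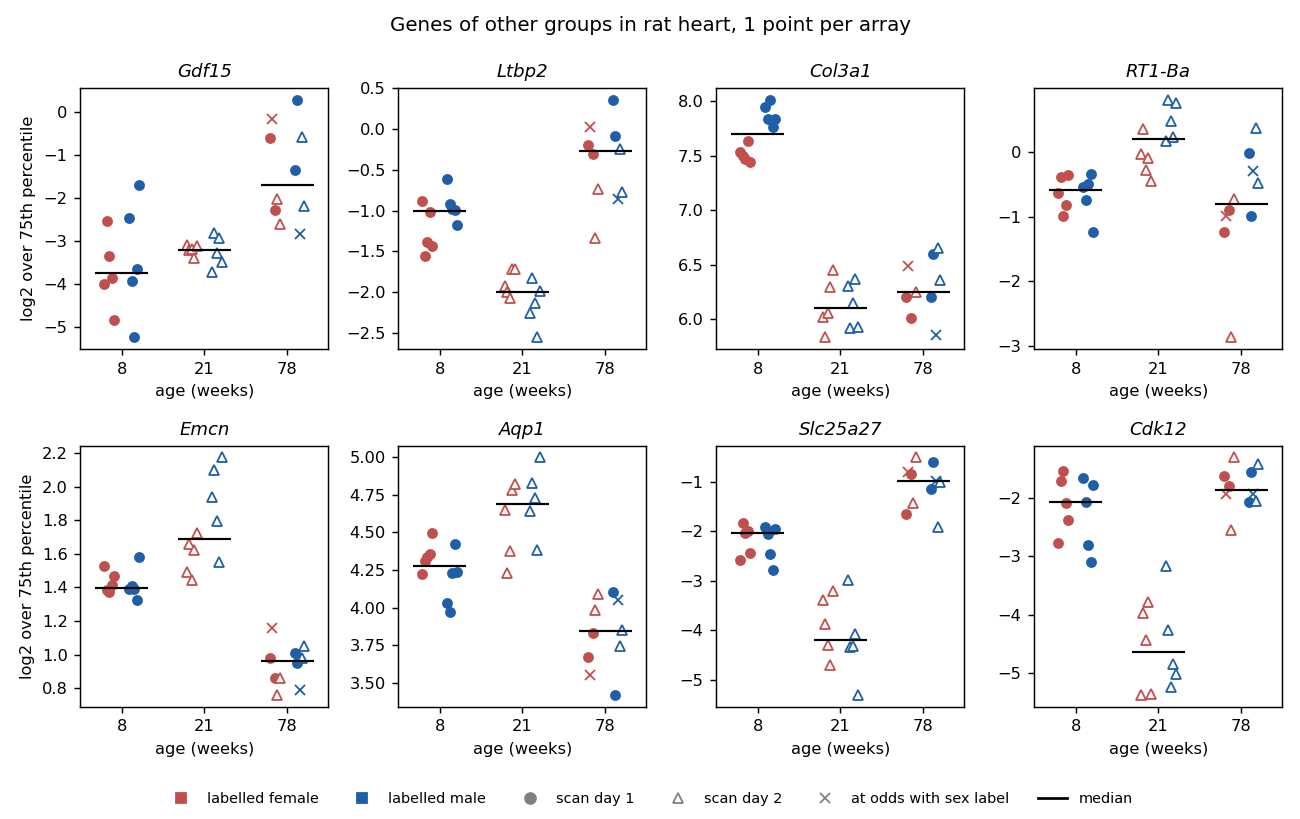
Log2 level over the 75th percentile of the array (vertical axes) of 8 genes of other groups at 8, 21 and 78 weeks (horizontal axes), drawn as 1 point per array with colours for the label of sex, shapes for scan day, crosses for the 2 arrays at odds with their label and a line at the median of each age. Gdf15 and Ltbp2 had their highest median and Emcn and Aqp1 their lowest at 78 weeks, whereas the 8-week median of Cdk12, -2.08, was close to -1.87 at 78 weeks and far from -4.64 at 21 weeks.

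The counts of the remaining lists stand beside 22.2% of all names called higher and 30.1% called lower. Of the remaining tissues that ground heart can carry, fibroblast markers gave 1 higher and 3 lower of 14, with a median of 0.04 and none held. Nerve and Schwann cell markers gave 1 higher and 1 lower of 14, and mesothelial markers 0 higher and 1 lower of 8. Erythroid genes gave 3 higher and 8 lower of 18, with a median of -0.36. Hbb, β-globin, was not called, at -0.19 (0.462). Of 10 skeletal muscle markers, 3 were called higher and 0 lower. Of 28 genes of vasoactive and adrenergic signalling, 10 were called higher and 5 lower, with 6 and 1 held. Of 16 growth factor and imprinted genes, 5 were called higher and 2 lower, with 1 and 1 held. Of 26 genes of autophagy and muscle protein breakdown, 3 were called higher and 14 lower, with 1 and 2 held. Apoptosis genes gave 5 higher and 15 lower of 40, with 1 and 3 held. Among single signalling genes, Pde3a, the phosphodiesterase that breaks down cyclic AMP in the heart, rose by 1.16 (4.67e-05), Fbxo32, a ubiquitin ligase of muscle breakdown, by 0.90 (0.000159) and Igf2r, which clears insulin-like growth factor 2, by 0.71 (0.001), with 3 arrays of 78 weeks left out for spots marked as outliers.

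The genes with the largest differences were chosen by the size of this difference among the held names, so their values are a description. The 15 leading higher genes had differences of 1.89 to 2.96. Slc25a27, a mitochondrial carrier known as uncoupling protein UCP4, led them, with levels of -5.31 to -2.98 (median -4.19) at 21 weeks and -1.92 to -0.51 (median -0.99) at 78 weeks, a difference of 2.96. It was well above background on 3 of the 10 arrays of 21 weeks, so that no exact fold is given. Its 8-week median of -2.04 lay between the others, 1.12 below 78 weeks (adjusted p = 7.10e-05). Next came the olfactory receptor Or13l2 at 2.74, Cdk12, a kinase of transcription elongation, at 2.72, Bcl2, an inhibitor of apoptosis, at 2.52, and Defb1, an antimicrobial β-defensin, at 2.39. Defb1 was the one of these whose 8-week median, -4.93, was next to that at 21 weeks, -5.00, with -2.23 at 78 weeks. The other probe of Bcl2 had a difference of 0.69 between 78 and 21 weeks.

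Many of these probes were dim in the adult hearts. Of the 15, 12 were well above background on at most 4 of the 10 arrays of 21 weeks, while all 15 were so on all 10 arrays of 78 weeks. A tested name had to be well above background on at least 10 of the 20 arrays. A probe dim at 21 weeks could thus enter only through the arrays of 78 weeks, and this contrast is no separate finding. The levels below background have no sure value, and the order of these genes is open to that. Or13l2 was measured above background on 2 arrays of 21 weeks, Cdk12 on 1, Bcl2 on 2 and Defb1 on 1. A filter on detection on all 20 arrays kept 2 of the 15 higher and 4 of the 15 lower genes. Cbfa2t2, Lhx3 and Bicd1 were not well above background in the adult hearts, with 0 arrays of 21 weeks, so that only bounds can be given, at least 1.95-fold, 1.66-fold and 1.74-fold higher at 78 weeks. These bounds set the mean of the 78-week arrays against the lowest signal well above background on each 21-week array, or the probe's own where that was higher. The 2 bright ones were Dst, a linker of the cytoskeleton, at 0.42 to 2.67 and 2.91 to 3.75 in the 2 ages, and Col8a1. Of the 15, 6 were also called higher at 78 than at 8 weeks, where 15.7% of all names were, and 0 were called lower. The 15 were chosen by the same 78-week arrays, so these counts cannot be set against that share.

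The 15 leading lower genes had differences of -2.24 to -1.26, and most overlapped between the ages. Cd7 lay between 0.85 and 3.00 at 21 weeks with a median of 1.53, and between -2.85 and 1.53 at 78 weeks with a median of -0.89, a difference of -2.24 ± 0.41, or 4.73-fold, and it was 1.80 below its 8-week level (adjusted p = 0.00277). Krt24, a keratin, lay between -1.85 and -0.52 at 21 weeks, between -3.12 and -2.17 at 78 weeks and between -1.19 and -0.09 at 8 weeks, and thus below all younger hearts at 78 weeks. Atp6ap1l, related to a subunit of the proton pump, was likewise lowest at 78 weeks, with differences of -1.26 from 21 weeks and -1.06 from 8 weeks. Dlx1 and Olig3, transcription factors of the nervous system, had differences of -1.53 and -1.5. Of the 15, 4 (Olig3, Or13n4b, Gng3 and Mamdc4) were also called lower on the shared scan day within 78 weeks, with -1.18 for Olig3 (limma, adjusted p = 0.0197) and -2.68 for Or13n4b (0.0017). Of all names, 0.493% were called lower on that day. The choice of the 15 required a lower level with the arrays of that day alone, so these shares are not comparable. The part of the scan day in the differences of these 4 genes was not tested. Ccl17, a chemokine, Tlr9, a receptor of bacterial DNA, and Mcpt9, a mast cell protease, had differences of -1.33, -1.33 and -1.35. At 78 weeks they were well above background on 3, 4 and 9 of 10 arrays. Of the 15, 5 were so on at most 4 arrays of 78 weeks, and the size of their differences is not sure. The call of Cnmd was lost in 13, and that of Or13n4b in 12, of the 20 runs that left out 1 array each, with adjusted p values of up to 0.0883 and 0.0926.

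Within 78 weeks, few names differed between the scan days. Between the 4 arrays of the shared day and the 6 of the other day, 85 names (0.493%) were called by limma, all lower on the shared day, with 1545 at an unadjusted p under 0.05. Without the 2 arrays at odds with their label, 0 were called. The hearts of 8 weeks were all scanned on the other day, and 10617 names (61.5%) were called between them and 21 weeks, while 5231 (30.3%) were called between 78 and 8 weeks. These comparisons share arrays and are given side by side. In many genes, titin, Ryr2 and Cdk12 among them, the medians at 8 and 78 weeks were closer to each other than to that at 21 weeks.

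Both sexes were also compared with their own adults. In females 2409 names (14.0%) were called between 78 and 21 weeks, 1285 higher (7.45%) and 1124 lower (6.52%), but 1341 without the 2 arrays at odds with their label and 247 with the shared scan day. In males 8761 (50.8%) were called, 3870 higher (22.4%) and 4891 lower (28.4%), and 7989 without the arrays at odds. The 3 weak arrays of 21 weeks were all male, and without them 4079 were called in females and 4002 in males, so that the gap between the counts of the sexes moved with these 3 arrays. A difference between the sexes in the change itself was called for 1 name (0.0058%), with 2441 at an unadjusted p under 0.05. This was Card9, an adaptor of innate immune receptors in myeloid cells. Its levels in females were 2.34, 2.18, 2.06, 2.14 and 2.65 at 21 weeks and 3.06, 3.32, 2.84, 3.49 and 2.79 at 78 weeks. In males they were 3.53, 4.09, 3.56, 3.38 and 3.87 at 21 weeks and 2.96, 3.06, 2.65, 3.04 and 2.89 at 78 weeks. The sexes were apart at 21 weeks and overlapped at 78 weeks, with a difference of 0.83 in females, -0.76 in males and 1.59 between them (limma, adjusted p = 0.0152). Without the 2 arrays at odds with their label, the difference was 1.47 and the adjusted p 0.15.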

How the data were processed

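Hearts of untreated F344 rats were measured on 1-colour Agilent arrays. The authors deposited scanner output of Agilent Feature Extraction 9.5.1.1, in which each spot has a processed signal, a background-corrected Cy3 intensity, and flags for background, saturation and outliers. These scanner values were not on a log2 scale and not normalized between arrays. The authors also made normalized values available. These served only to name the probes of Ddx3y and Eif2s3y, by matching values. The number of rats, not a read depth, limits the precision.

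For spots that are no controls, the log2 of the processed signal was taken relative to the 75th percentile on the same array, and spots marked as outliers were left out. Of several probes of a gene name the one with the highest mean was kept, and a name was tested when its probe was well above background on at least 10 of the 20 arrays, which left 17257 of 35537 names. Differences were fitted with limma 3.58.1 (R 4.3.3), with gender as a term and Benjamini-Hochberg adjustment over all names, and an adjusted p under 0.05 was a call. Alternatives were the 4 arrays of 78 weeks of the shared scan day, quantile normalization, other background corrections, scalings and filters, slide and replicate number as blocks, and leaving out arrays.

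The genes named are the 15 largest differences each way that passed in all 3 settings, leaving out accessions and predicted names, up to 4 called members of each of 49 gene lists with the largest change, members that define a list at any value, and Ddx3y and Eif2s3y. A few genes that this rule names are not reported here. Card9 was named after its values were seen, as were Klf9, Fkbp5, Gsta3, Pcna and other genes given with a single difference. The members and lists were chosen with earlier results of these data known, and a gene may stand in several lists. Gene names came from the files, updated by accession through RefSeq where possible (9396 of the names tested). The fit was tested on simulated data for 78 against 21 weeks over 16936 names, with 100 names changed at each size. It recovered 56% of changes of 0.5, 90% of 1 and 100% of 2 on the log2 scale. Of the 16536 unchanged names it called 0.127%. How the fit performs with a batch difference, or with as large a share of changed names as was called here, was not tested.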

Additional observations from a re-analysis of the deposited data

Results flagged for a closer look

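Among 274 sets of 10 arrays, 1 set for each named gene and age, 33 held 1 array that lay far from the other 9 by Dixon's test, which flags about 1 in 20 sets by chance. Female replicate 4 of 78 weeks was that array most often, and its log2 levels were the lowest of its age in Bicd1 (-3.45), Mcpt9 (-4.27), Nppb (6.33), Fn1 (3.13), Inhba (-0.72), Tgfb2 (-3.05), Dusp5 (2.45), RT1-Ba (-2.87), RT1-Bb (1.45), RT1-Da (2.17), Psmb9 (3.43), Psmb10 (4.27), Klrb1a (-2.91) and Ltb (0.71). Without it, the difference was 1.14 for Fn1 and 1.11 for Tgfb2, -0.65 for Psmb9, -0.62 for Psmb10 and -0.91 for Bmal1, with adjusted p values from limma of 4.18e-06, 1.52e-05, 0.00103, 0.000556 and 0.0497.

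Male replicate 5 of 21 weeks, one of the 3 weak arrays, stood apart in Atf7 (-5.3), Atp6ap1l (2.12), Tgfb2 (-3.13), Bmal1 (-0.81) and Pcna (3.1). Female replicate 5 of 21 weeks was low in Olig3 (-3.04), Or13n4b (-4.77) and Cry2 (-4.02). Male replicate 1 of 21 weeks was high in Col8a1 (1.2) and low in Col4a4 (-1.93). Male replicate 4 of 78 weeks stood apart in Itpr1 (2.27), Cd74 (6.61), Ifi47 (0.36) and Cspg4 (4.61). The remaining arrays were female replicate 5 of 78 weeks in Nebl (-1.52), female replicate 1 of 78 weeks in Ryr2 (6.92), female replicate 1 of 21 weeks in Kcne1 (-4.70), female replicate 3 of 21 weeks in Cdkn1a (2.58) and male replicate 5 of 78 weeks in Vwf (4.01).

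The change of Card9 between the ages differed between the sexes by 1.59 on the log2 scale. It was 1.49 with quantile normalization (adjusted p = 0.0029), and it missed the threshold with the shared scan day alone (0.569), without a filter on dim probes (0.0705), without the 3 weak arrays (0.0733), and without female replicate 2, 3 or 4 of 21 weeks (0.0521, 0.0519 and 0.054) or female replicate 2 of 78 weeks (0.0514). Without male replicate 2 of 21 weeks, 2 names were called.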

How the results depend on the processing

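With the shared scan day alone, 3628 names were called, 1747 higher and 1881 lower, and with quantile normalization added 3706, 1735 higher and 1971 lower. Of the 3628, 3476 were also called in the same direction with all arrays. Names detected on all arrays gave 2251 called higher, and 31% of their calls were higher, against 42.5% with the usual filter and 58.8% with the other 75th percentile. At least 1.5-fold, 3245 names were called, against 2138 with the shared scan day and quantile normalization, 825 with normexp background correction, 1180 with the raw median signal, 1691 detected on all arrays and 2118 without the 3 weak arrays, an alternative chosen after seeing the data. In females 2409 names were called, against 1341 without the 2 arrays at odds with their label, 247 with the shared scan day, 1531 without a filter and 4079 without the weak arrays. In males 8761 became 3157 with the shared scan day and 4002 without the weak arrays. The single call of a difference between the sexes became 0 without the arrays at odds, with the shared scan day, without a filter, with the replicate block and without the weak arrays. The 85 calls between scan days became 42 with quantile normalization and 0 without the arrays at odds.

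Leaving out 1 array at a time gave 8407 to 9709 calls, 3585 to 4211 higher and 4779 to 5498 lower, 2751 to 3637 at least 1.5-fold, 1328 (without female replicate 2 of 21 weeks) to 3578 (without female replicate 4 of 78 weeks) in females, 7450 to 9372 in males, 0 to 2 between the sexes and 7 (without female replicate 2 of 78 weeks) to 69 between scan days. In females the count was also between 1466 and 1571 without female replicate 4 of 21 weeks or 2, 3 or 5 of 78 weeks. Replicate numbers did not pair the rats, since 2 of 10 pairs correlated over 0.1 (r from -0.355 to 0.195). A replicate block gave 8234 calls, 1228 in females and 0 between the sexes.

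Of the genes named, Nppb changed sign, to 0.323 with quantile normalization, 0.163 with the shared scan day added, 0.083 with the 75th percentile over probes detected on all arrays, 0.077 with normexp, 0.040 with the raw median signal, 0.001 with the mean of its probes, 0.131 with array weights, 0.039 without the weak arrays, 0.008 without the weakest array and between -0.094 and 0.062 on leaving out 1 array. Atp2a2 turned to 0.245, 0.30, 0.004 and 0.197 with the first 3 of these and the mean of its probes. Nr1d1 turned to 0.102 with the shared scan day, 0.126 with quantile normalization added, 0.008 with the other 75th percentile and 0.028 without the weak arrays, and Cdkn2a to -0.063 with normexp and -0.065 with the raw median signal. Of 137 genes, 19 lost their call with the shared scan day alone, 25 with quantile normalization added, 12 with normexp and 1 with quantile normalization. The cause was not tested.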
